A study of Mus musculus with 11 samples.

Results

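The genes described here encode subunits of the receptors for glutamate, GABA and glycine, and their reads were compared between muscle spindles and adjacent muscle. Members were chosen by gene symbol, as the AMPA (*Gria*), kainate (*Grik*), NMDA (*Grin*), delta (*Grid*) and metabotropic (*Grm*) glutamate receptor genes, the GABA-A (*Gabr*) and GABA-B (*Gabbr*) receptor genes and the glycine receptor genes (*Glra*, *Glrb*). Of the 22384 genes in the count table, 46 met this rule. *Gabra6*, *Gabrr3*, *Glra1*, *Glra2*, *Glra4* and *Grm3* were not analysed here. Spindle samples were bundles of about 20 muscle spindles each, picked under a fluorescence microscope from the deep masseter, a jaw muscle, of Piezo2EGFP-IRES-Cre;Rosa26tdTomato mice. In these mice Cre recombinase made from the *Piezo2* locus switches on the red protein tdTomato. The study saw tdTomato in sensory neurons of dorsal root ganglia, in intrafusal fibers and in capsule cells, but not in the sensory endings. Muscle samples were extrafusal fibers taken beside the spindles of mice of the same genotype, so muscle carries both alleles too. The *Piezo2* allele came from a line listed as B6(SJL) and the *Rosa26* allele from a line listed as B6.Cg. No treatment was given, and the sex of the mice is not given in the sources used here. The study imaged the deep masseter of adult mice of this genotype, and its methods give no age for the sequenced mice. Mice 9, 10, 12, 13 and 16 gave 5 spindle libraries, and these mice together with mouse 11 gave 6 muscle libraries. A library is named below by its tissue and mouse. A sample is a whole organ with several tissues, so fewer cells of a type and less RNA per cell cannot be told apart in these counts.

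A muscle spindle is a stretch receptor. It holds thin intrafusal fibers inside a capsule, sensory endings of proprioceptive afferents at its equator and endings of γ-motoneurons at its poles. Fast glutamate signals pass through AMPA, kainate and NMDA receptors, which are cation channels built of several subunits, while metabotropic glutamate receptors act through G proteins. GABA-A and glycine receptors are chloride channels built in the same way, and the GABA-B receptor is a G protein-coupled dimer. In the spinal cord these receptors serve synapses onto and from the afferents and motoneurons. The sensory ending in the spindle holds synaptic-like vesicles with glutamate, and the cell bodies of the afferents and motoneurons of the masseter lie in the brainstem, outside the dissected tissue.

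Libraries held 8354260 to 19668038 counts in spindle (median 14134282) and 9690335 to 23430654 counts in muscle (median 20259694.5), and the receptor subunits together took 822 to 1676 of them per spindle library and 250 to 744 per muscle library. Markers of spindle tissues bore out the spindle label, though genes of fast extrafusal fibers were abundant in spindle too. All 8 listed genes of intrafusal fibers, such as *Myh6* and *Egr3*, were called higher in spindle, where their summed level was 882 to 1309 CPM (counts per 1000000 counts of the scaled library), against 3.40 to 13.9 CPM in muscle. So were 7 of 7 genes of the capsule, 11 of 12 of Schwann cells, 7 of 7 of macrophages, 8 of 13 of axons and neurons and 7 of 11 of proprioceptive afferents and motoneurons. Of 8 genes of fast extrafusal fibers, 5 were called lower in spindle and 1, *Myh4*, higher. These 8 genes summed to 21022 to 29874 CPM in spindle and 54073 to 71766 CPM in muscle. Of 6 genes of muscle fibroblasts 2 were called higher, and of 6 of endothelial cells 0 were called. Genes of the axon list summed to 32.2 to 54.5 CPM in spindle and 6.02 to 16.8 CPM in muscle. *Chat*, *Mnx1* and the neurofilament genes *Nefl*, *Nefm* and *Nefh* were not analysed here. The spindle libraries were not alike. Odorant receptor genes (444 genes), most of which these tissues are not known to use, summed to 144, 170, 228, 196 and 17.2 CPM in spindle 9, 10, 12, 13 and 16. In muscle they summed to 9.22 to 63.3 CPM, with the highest values in muscle 12 (63.3 CPM) and muscle 10 (49.9 CPM). Spindle 16 therefore lay in the range of muscle for these reads. Results below are given with and without spindle 10, 12 and 13, which held the most of them. Spindle 9, at 144 CPM, was also above all muscle libraries and stays in that fit beside spindle 16. A call kept or lost there is therefore no test of these reads. Mitochondrial genes took 38.2, 27.4, 29.7, 28.5 and 22.6% of counts in spindle 9, 10, 12, 13 and 16, against 16.7 to 24.8% in muscle, so spindle 16 lay in the range of muscle here too, and the part of this share in the results was not tested.

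Of the 46 receptor subunits 21 (45.7%) were called higher in spindle, where 11.0% of all genes were, and none was called lower, where 1.80% of all genes were. The call of a gene required a mean normalized count of 5 or more, a log2 fold change of 1 or more in size and an adjusted p of 0.05 or less in edgeR's quasi-likelihood test, with p adjusted over all 22384 genes by the method of Benjamini and Hochberg. No subunit had a lower level at an unadjusted p under 0.05 in edgeR or DESeq2, and 3 had one in limma-voom, while the count of lower calls was 0 by each of the 3 tools. The log2 fold change was positive in 43 subunits and negative in 3, with a median of 2.61, or 2.56 when the 2 genes without muscle reads are set to their lower bound. The median over all genes was 0.29, and that over all genes with a mean normalized count under 20, which holds most subunits, was 1.85. Among all 3455 genes with a mean of 5 to 20 normalized counts, the range that holds most of the subunits that could be called, 33.1% were called higher. Of the 19 subunits with a mean in that range, 15 were called higher. The median of the odorant receptor genes was 3.06, and 9.01% of them were called higher. Counts were low: 19 subunits had a mean under 5 and could not be called, though 7 of them passed the limits on p and fold change. Spindle 9 had 0 reads for 19 of the 46 subunits, against 9 in spindle 16 and 0, 1 and 4 in spindle 10, 12 and 13. Summed over the class, the subunits reached 91.3, 100.9, 95.1, 82.4 and 63.4 CPM in spindle 9, 10, 12, 13 and 16, against 29.2 to 38.3 CPM in muscle (median 34.7 CPM).

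**Figure D1:**
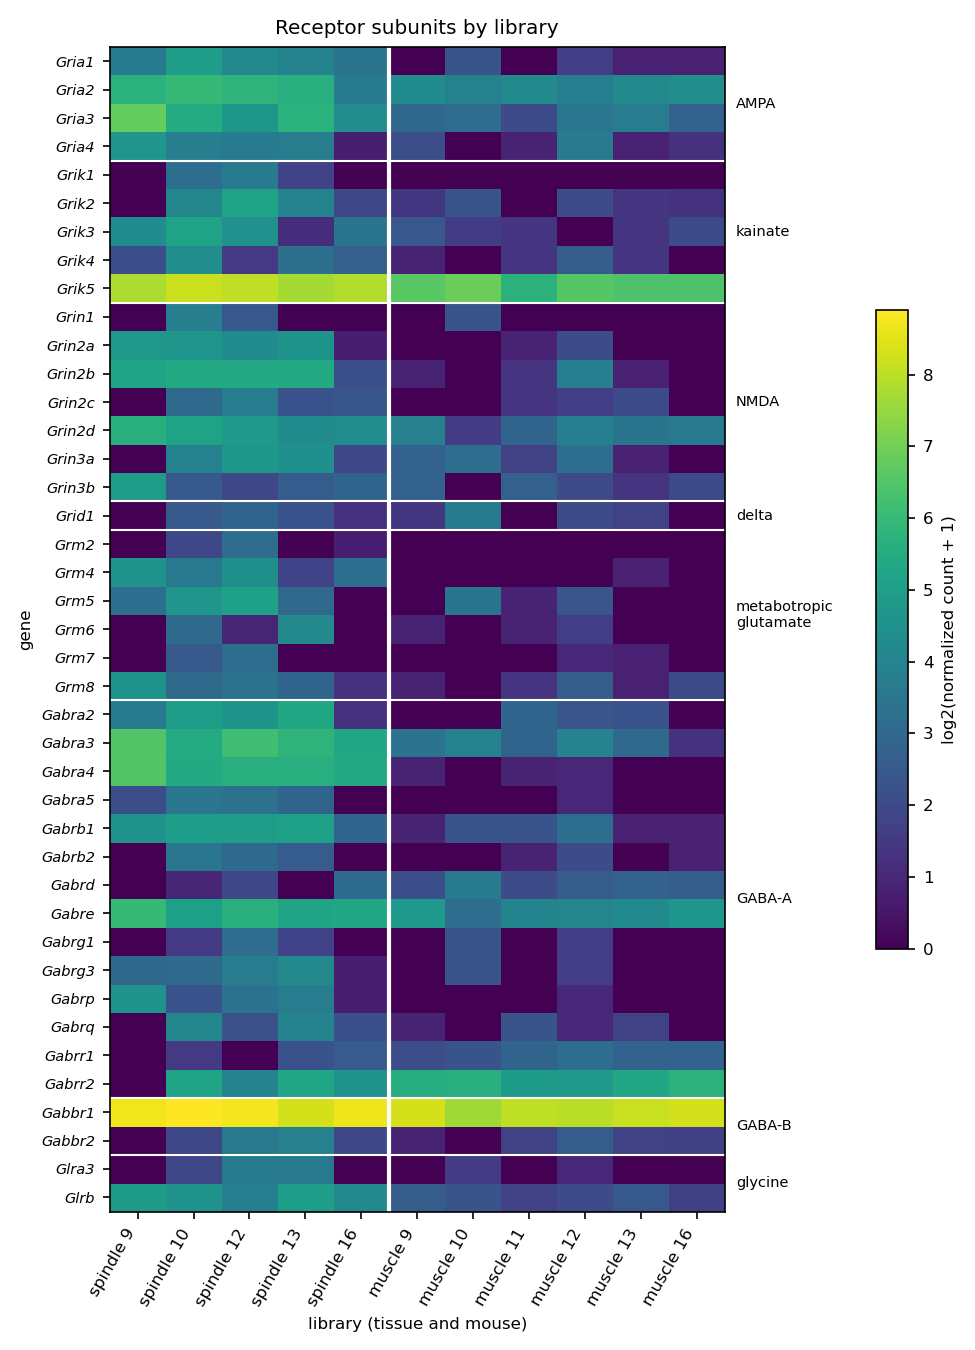
Normalized counts of 41 of the receptor subunits, as log2(normalized count + 1), in 5 spindle libraries (left) and 6 muscle libraries (right), with genes ordered by receptor class. *Gabbr1* and *Grik5* are bright in all 11 libraries, *Gabra4* is bright in spindle only, and many NMDA, GABA-A and metabotropic subunits are brighter in spindle 10, 12 and 13 than in spindle 16.

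Levels per length of exon can be compared between genes. In spindle the highest levels per kilobase were those of *Gabbr1* (3.41 CPM per kilobase) and *Grik5* (3.06), followed by *Gabra3* (0.980), *Gabrr2* (0.675), *Gabre* (0.594), *Gabra4* (0.572), *Gria3* (0.327), *Glrb* (0.310) and *Grin2d* (0.283). The other 37 subunits were lower still. In muscle the order began with *Gabbr1* (2.26 CPM per kilobase), *Gabrr2* (1.22), *Grik5* (1.1) and *Gabre* (0.243), and *Gabra4* stood at 0.00476. All 5 spindle libraries lay above all 6 muscle libraries in 11 subunits, each of them called, among them *Gabra4*, *Gabra3*, *Gabre*, *Glrb*, *Gria1*, *Gria3*, *Grik5*, *Grin2d* and *Grm4*. Over all genes this held for 9.15%.

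Among GABA-A receptor subunits the clearest case was *Gabra4*, which encodes the α4 subunit, a part of receptors outside synapses in the mouse forebrain. It lies on the minus strand at chr5:71569749-71658308 (GRCm38), head to head with *Gabrb1*, the gene of the β1 subunit, on the plus strand at chr5:71658113-72149037, and the gene models share 196 bases. Their start regions are shown because these neighbours behaved differently across the spindle libraries. Each RefSeq window (GRCm38.p6; for *Gabrb1* that of the first of its 2 start sites) runs from 250 bases before a start site to 50 bases after it, 5′ to 3′ on the strand of the gene, and capitals mark matches to the Egr motif GCGNGGGCG on either strand, searched because *Egr3* is needed to form intrafusal fibers and had a log2 fold change of 3.32. The window of *Gabra4* is chr5:71658259-71658558 (minus strand) and that of *Gabrb1* chr5:71657671-71657970 (plus strand). The window of *Grik5* (chr7:25072320-25072619, minus strand), the most abundant called subunit, is given beside them.
*Gabra4*: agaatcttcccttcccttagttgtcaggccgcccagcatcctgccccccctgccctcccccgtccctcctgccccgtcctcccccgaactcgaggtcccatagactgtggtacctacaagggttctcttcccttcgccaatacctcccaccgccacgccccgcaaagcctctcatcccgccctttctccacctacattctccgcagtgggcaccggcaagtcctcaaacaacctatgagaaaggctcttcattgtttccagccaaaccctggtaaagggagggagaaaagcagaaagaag
*Gabrb1*: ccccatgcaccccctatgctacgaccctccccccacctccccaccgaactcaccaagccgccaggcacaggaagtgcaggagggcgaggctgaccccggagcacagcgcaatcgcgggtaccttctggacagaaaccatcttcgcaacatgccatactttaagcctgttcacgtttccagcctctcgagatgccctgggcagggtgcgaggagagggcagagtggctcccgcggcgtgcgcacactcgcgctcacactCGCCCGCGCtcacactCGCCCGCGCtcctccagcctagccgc
*Grik5*: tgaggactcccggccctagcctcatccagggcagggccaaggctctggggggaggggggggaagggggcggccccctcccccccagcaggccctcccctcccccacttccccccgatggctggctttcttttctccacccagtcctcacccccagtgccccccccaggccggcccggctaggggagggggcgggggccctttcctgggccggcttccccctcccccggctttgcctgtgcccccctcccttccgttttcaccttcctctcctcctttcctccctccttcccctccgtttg

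The printed window of *Gabrb1* had 2 matches to the Egr motif, whose first bases were bases 9 and 25 counted from the start site. The windows of *Gabra4* and *Grik5* held none, nor did that of the second start site of *Gabrb1*. The printed *Gabrb1* window lies before the GENCODE gene model of *Gabrb1* and inside that of *Gabra4*. The 2 matches therefore cannot be assigned to 1 of these neighbours by position. The motif occurred in the windows of 6.27% of 27025 mouse genes and of 5 of the 31 subunits that had a window (16.1%): *Grin1*, *Gabrb1*, *Glra3*, *Gria4* and *Gabrb2*. The E-box CANNTG, which muscle and neuronal bHLH factors bind, occurred in 75.0% of all genes and in 20 of the 31 subunits (64.5%), and in none of the windows printed above. The motifs share no letters in these windows. A match is a string of letters and was not tested as a binding site.

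*Gabra4* had 52, 45, 53, 39 and 60 reads in spindle 9, 10, 12, 13 and 16, against 0 to 1 read (median 0.5) in the 6 muscle libraries. Every spindle library was far above every muscle library, and after scaling the spindle levels ran from 41.9 normalized counts in spindle 16 to 89.6 in spindle 9. Normalized counts averaged 53.9 ± 20.2 over 5 spindle libraries and 0.449 ± 0.498 over 6 muscle libraries (mean ± SD). The ratio of summed counts, 249 against 3 reads, was 109 (exact 95% interval 36.8 to 531, counting error only), and the log2 fold change was 6.53 (SE 0.51, adjusted p 1.12e-08 in edgeR). It stayed called without spindle 10, 12 and 13 (6.82) and with spindle 16 as the only spindle library (6.24). The exons of *Gabra4* overlap those of *Gabrb1* over 0.756% of their length, and reads there could be counted for either gene.

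*Gabra3*, the gene of the α3 subunit, was the most abundant called GABA-A subunit per length. It had 51, 47, 80, 44 and 57 reads in spindle 9, 10, 12, 13 and 16, against 2 to 14 reads (median 9) in muscle. The groups did not overlap, and the log2 fold change was 2.80 (SE 0.39, adjusted p 1.72e-05 in edgeR). *Gabre*, which encodes the ε subunit and lies next to *Gabra3* on the X chromosome, had 36, 34, 55, 29 and 56 reads in spindle, in the same order of libraries, against 4 to 33 reads (median 21.5) in muscle. Once scaled for depth its groups were apart, at 43.7 ± 12.1 normalized counts in spindle and 17.9 ± 6.61 in muscle (SD, n = 5 and 6), with a log2 fold change of 1.23 (SE 0.30, adjusted p 0.00363 in edgeR). With the median gene set to 0 its log2 fold change was 0.94, under the limit. The third gene of the cluster, *Gabrq* (θ subunit), had 0, 17, 4, 12 and 5 reads in spindle and 0 to 5 reads (median 1) in muscle and was not called. *Gabra3* and *Gabre* kept their calls without spindle 10, 12 and 13.

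**Figure D2:**
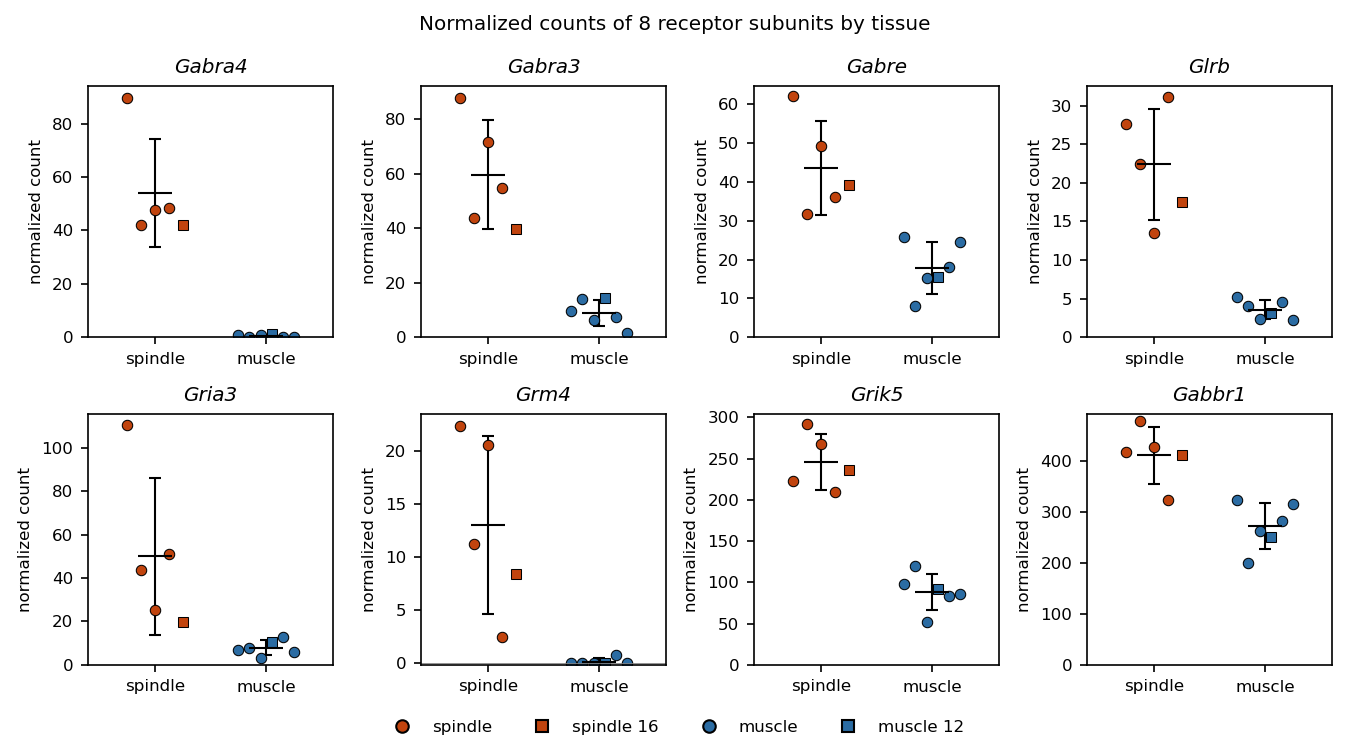
Normalized counts of 8 receptor subunits in spindle (left in each panel, n = 5) and muscle (right, n = 6); points are libraries, squares mark spindle 16 and muscle 12, and bars are the mean ± SD. Spindle and muscle do not overlap for *Gabra4*, *Gabra3*, *Gabre*, *Glrb*, *Gria3*, *Grm4* and *Grik5*; for *Gabbr1* the mean is 411 in spindle and 272 in muscle, and 1 spindle library lies within the range of muscle.

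The β subunits bind GABA together with an α subunit. *Gabrb1* had 13, 33, 34, 27 and 9 reads in spindle 9, 10, 12, 13 and 16, against 1 to 8 reads (median 1.5) in muscle, with a log2 fold change of 3.03 (SE 0.61, adjusted p 0.000743 in edgeR). After scaling, spindle 16 fell within the range of muscle, in contrast to its neighbour *Gabra4*. *Gabrb1* was not called without spindle 10, 12 and 13.

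Of the α subunits found in synaptic GABA-A receptors, *Gabra2* (α2 subunit) was low in level and uneven among spindle libraries. This gene, which lies in the same cluster as *Gabra4* on chromosome 5, had 7, 33, 26, 31 and 2 reads in spindle 9, 10, 12, 13 and 16, against 0 to 8 reads (median 2) in muscle, with a log2 fold change of 3.0 (SE 0.81, adjusted p 0.00839 in edgeR). Spindle 16 held 5.34% of the mean level of the other spindle libraries, and with spindle 16 alone the log2 fold change turned to -0.77.

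The 3 subunits with a negative log2 fold change were all of the GABA-A class, and none of them was called. *Gabrr2*, which encodes the ρ2 subunit known from the retina, had 0, 38, 16, 30 and 33 reads in spindle 9, 10, 12, 13 and 16, against 24 to 70 reads (median 43.5) in muscle. Its level was lower in spindle than in muscle of the same mouse in all 5 mice, but the spread among spindle libraries was wide. Spindle 9, the shallowest library in total counts, had 0 reads, which allows up to 3. Muscle 10, whose scaled library was smaller than that of spindle 9, had 24 reads. The log2 fold change of *Gabrr2* was -0.81 (SE 0.44) and did not pass the test (adjusted p 0.149 in edgeR). *Gabrr1* (ρ1 subunit), its neighbour on chromosome 4, stood at -1.32 (SE 0.81), with 0 to 7 reads in spindle and 2 to 8 in muscle, and *Gabrd*, whose δ subunit joins α4 in receptors outside synapses, at -1.13 (SE 0.85). *Gabrd* had 0, 1, 3, 0 and 11 reads in spindle, so most of its spindle reads came from spindle 16. Of the other members of the class, *Gabra5*, *Gabrb2*, *Gabrg1*, *Gabrg3* and *Gabrp* had at most 14 reads in any spindle library and at most 3 in any muscle library and were not called. *Gabrp* (π subunit) had 38 reads in spindle and 1 read in muscle, a ratio of 49.8 (exact 95% interval 8.41 to 2018), and *Gabra5* (α5 subunit) 28 reads and 1 read, a ratio of 36.7 (6.07 to 1500.3).

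GABA-B receptors work as dimers of a subunit that binds GABA and one that couples to G proteins. *Gabbr1*, the gene of the subunit that binds GABA, was the most abundant subunit in both tissues, with 242, 512, 475, 259 and 587 reads in spindle 9, 10, 12, 13 and 16, against 100 to 423 reads (median 351) in muscle. Normalized counts averaged 411 ± 56.2 in spindle and 272 ± 45.1 in muscle (SD, n = 5 and 6), and spindle was above muscle in all 5 mice. The log2 fold change of 0.59 (SE 0.14, adjusted p 0.00272 in edgeR) passed the test on p and was below the minimum size of 1, so *Gabbr1* was not called. *Gabbr2*, which the receptor needs to reach the cell surface, had 0, 3, 12, 11 and 4 reads in spindle and 0 to 5 reads (median 3) in muscle. Per kilobase of exon *Gabbr1* stood at 3.41 CPM and *Gabbr2* at 0.0579 CPM in spindle, and at 2.26 and 0.0208 CPM in muscle.

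The glycine receptor was represented by its β subunit. *Glrb*, which ties the channel to the scaffold gephyrin, had 16, 24, 15, 25 and 25 reads in spindle 9, 10, 12, 13 and 16, against 2 to 6 reads (median 3) in muscle. The groups were apart and spindle 16 reached 74.0% of the mean of the other 4 libraries. Normalized counts averaged 22.4 ± 7.19 in spindle and 3.57 ± 1.19 in muscle (SD, n = 5 and 6), a log2 fold change of 2.61 (SE 0.44, adjusted p 0.000169 in edgeR) that was also 2.61 without spindle 10, 12 and 13. The β subunit binds glycine and forms a channel together with an α subunit. Of the α subunits *Glra3* was analysed, with 0, 3, 13, 9 and 0 reads in spindle and 2 reads over all muscle libraries, a ratio of 16.4 (exact 95% interval 4.08 to 142.7). It was not called.

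AMPA receptor genes gave 3 calls among 4 members. *Gria3* (GluA3 subunit) had 64, 47, 28, 41 and 28 reads in spindle 9, 10, 12, 13 and 16, against 4 to 17 reads (median 8) in muscle. The groups did not overlap, though spindle 9 was far above the rest after scaling, and the log2 fold change was 2.62 (SE 0.44, adjusted p 0.000155 in edgeR). *Gria1* (GluA1) had 7, 33, 20, 12 and 14 reads in spindle, against 0 to 2 reads (median 1) in muscle, again without overlap, and a log2 fold change of 3.96 (SE 0.72, adjusted p 0.000299 in edgeR). *Gria2* encodes GluA2, the subunit whose edited form keeps AMPA receptors from passing calcium. It had 29, 66, 61, 39 and 17 reads in spindle, against 7 to 27 reads (median 22.5) in muscle, and a log2 fold change of 1.37 (SE 0.34, adjusted p 0.00438 in edgeR). Spindle 16 was below every muscle library for *Gria2*, and with spindle 16 alone the log2 fold change was -0.51. *Gria4* (GluA4) had 14, 14, 13, 10 and 1 reads in spindle and 0 to 11 (median 1.5) in muscle and was not called (adjusted p 0.0632 in edgeR). Without spindle 10, 12 and 13 *Gria3* was still called, at 2.99, while *Gria1* stood at 3.25 (adjusted p 0.0580 in edgeR) and *Gria2* at 0.75, neither of them called.

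Kainate receptors were led by *Grik5*, which encodes GluK5, a subunit that binds kainate tightly and forms channels only together with GluK1, GluK2 or GluK3. *Grik5* had 129, 313, 298, 168 and 338 reads in spindle 9, 10, 12, 13 and 16, against 60 to 115 reads (median 100) in muscle. Normalized counts averaged 245 ± 34.0 in spindle and 88.5 ± 22.2 in muscle (SD, n = 5 and 6). They ran from 209 to 292 in spindle and from 51.9 to 120 in muscle. The log2 fold change was 1.49 (SE 0.18, adjusted p 3.39e-06 in edgeR), was 1.39 without spindle 10, 12 and 13 and 1.46 with spindle 16 alone, and stayed called in both. *Grik3* (GluK3) had 11, 36, 24, 1 and 14 reads in spindle, against 0 to 5 reads (median 2) in muscle, and a log2 fold change of 2.95 (SE 0.70, adjusted p 0.00294 in edgeR). Spindle 13, with 1 read, was the exception among its spindle libraries. *Grik2* (GluK2) had 0, 17, 39, 12 and 4 reads in spindle, against 0 to 3 reads (median 2) in muscle. Its log2 fold change of 2.89 (SE 0.83, adjusted p 0.0114 in edgeR) was -0.21 without spindle 10, 12 and 13, 2.15 and uncalled without spindle 12, and lost its call when mice were fitted as blocks (adjusted p 0.0598). *Grik1* (GluK1) had 24 reads, in spindle 10, 12 and 13, and none in muscle, at least 10.5-fold higher against 3 reads over the group, and *Grik4* (GluK4) 2 to 21 reads in spindle and 0 to 5 in muscle, neither of them called.

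NMDA receptors need the subunit GluN1, encoded by *Grin1*, in every channel. *Grin1* had 0, 14, 5, 0 and 0 reads in spindle 9, 10, 12, 13 and 16 and 2 reads in muscle, both in muscle 10. The ratio of 12.4 (exact 95% interval 3.0 to 110.2) rested on spindle 10 and 12, and *Grin1* was not called. Of its exons, 13.5% of the length overlaps another gene. The GluN2 subunits, which bind glutamate, were higher in read number. *Grin2b* had 21, 44, 47, 34 and 5 reads in spindle, against 0 to 13 reads (median 1) in muscle, where muscle 12 held 13 reads and no other library more than 2. Its log2 fold change was 3.54 (SE 0.82, adjusted p 0.00385 in edgeR). *Grin2a* had 15, 26, 21, 19 and 1 reads in spindle, against 0 to 3 reads (median 0) in muscle, and a log2 fold change of 4.63 (SE 0.91, adjusted p 0.000647 in edgeR). Spindle 16 held 8.65% of the mean level of the other 4 spindle libraries for *Grin2b* and 3.02% for *Grin2a*, and with spindle 16 alone their log2 fold changes were 0.36 and 0.14. *Grin2d* differed from them. It had 27, 37, 30, 15 and 28 reads in spindle, against 1 to 16 reads (median 13) in muscle, with no overlap after scaling and a log2 fold change of 1.55 (SE 0.40, adjusted p 0.00519 in edgeR), or 1.71 without spindle 10, 12 and 13. Of its exonic length 9.66% overlaps *Gm45441*, and reads there are uncertain. *Grin2c*, *Grin3a* and *Grin3b* were not called, with log2 fold changes of 2.17, 1.67 and 1.41, and 32.1% of the exonic length of *Grin3b* overlaps *Tmem259*.

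**Figure D3:**
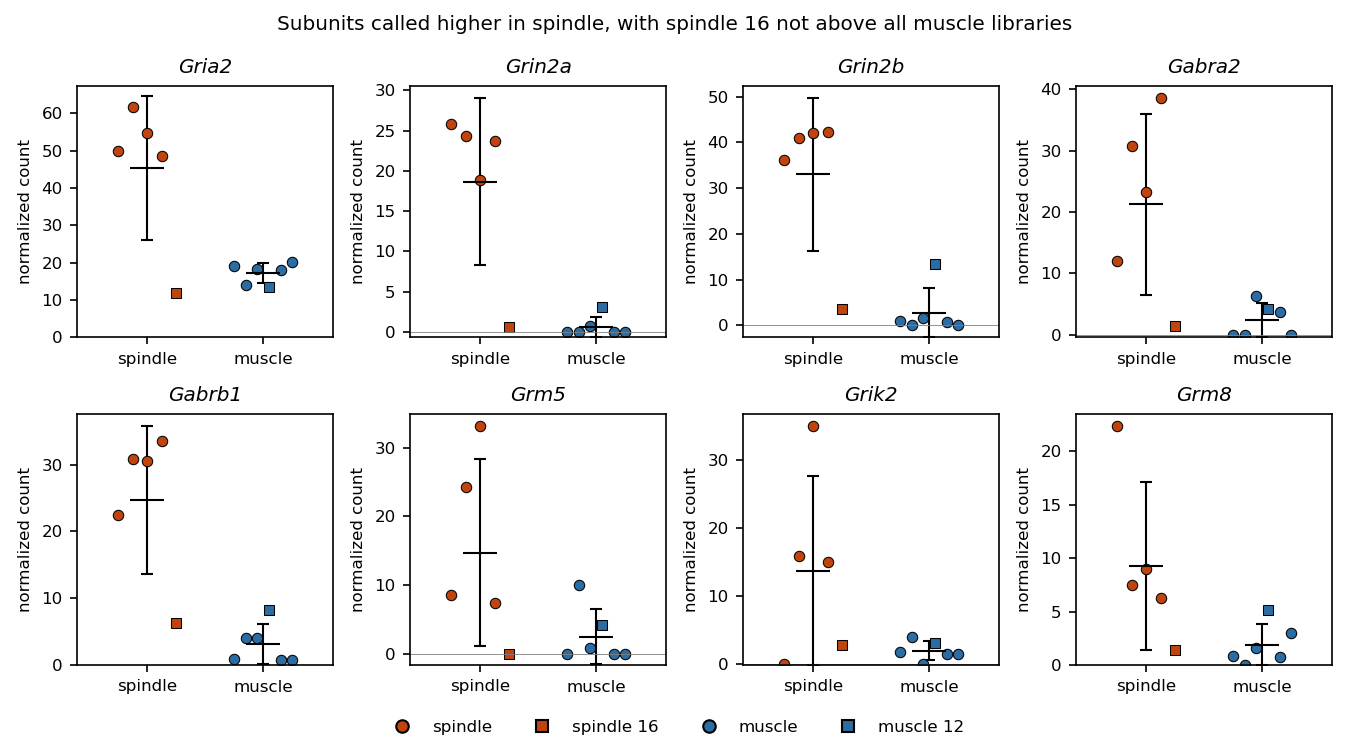
Normalized counts of 8 subunits called higher in spindle whose level in spindle 16 was not above all muscle libraries; layout as in the other plot of normalized counts, with squares for spindle 16 and muscle 12 and bars for the mean ± SD (n = 5 spindle, 6 muscle). Spindle 16 lies at 11.9 for *Gria2*, below all muscle libraries, at 0 for *Grm5*, and muscle 12 is the highest muscle library for *Grin2a*, *Grin2b*, *Gabrb1* and *Grm8*.

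Of the delta receptors, which bind cerebellins at synapses, *Grid1* was not called, at a log2 fold change of 0.23 (SE 1.04).

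Metabotropic glutamate receptors had 4 calls among 7 members. *Grm4* encodes mGlu4, a receptor that lowers cAMP and lies mostly on nerve terminals. It had 13, 12, 23, 2 and 12 reads in spindle 9, 10, 12, 13 and 16, against 1 read over all muscle libraries, a ratio of 81.2 (exact 95% interval 14.1 to 3260.1). Every spindle library was above every muscle library, and the log2 fold change was 5.60 (SE 0.92, adjusted p 0.000121 in edgeR). Its mean was close to the minimum, so the call ended without spindle 9 (log2 fold change 5.37) or spindle 12 (5.37), and without spindle 10, 12 and 13 it stood at 5.85 and was not called. *Grm5* (mGlu5), which couples to Gq and phospholipase C, had 5, 26, 37, 6 and 0 reads in spindle, against 0 to 5 reads (median 0.5) in muscle, and 2.92 (SE 1.08, adjusted p 0.0428 in edgeR). *Grm8* (mGlu8), like mGlu4 a receptor of terminals, had 13, 8, 10, 5 and 2 reads in spindle, against 0 to 5 reads (median 1.5) in muscle, and 2.13 (SE 0.81, adjusted p 0.0435 in edgeR). These last 2 calls were not stable to single libraries. *Grm5* lost its call without spindle 9, 10, 12 or 13 (log2 fold changes 3.09, 2.60, 2.28 and 3.09) and without muscle 9, 11, 13 or 16 (2.62, 2.73, 2.60 and 2.60). *Grm8* lost its call without spindle 9, 10, 12 or 13 (1.55, 2.20, 2.14 and 2.24), without muscle 9, 10, 11, 13 or 16 (1.96, 1.94, 2.06, 1.94 and 2.27) and when mice were fitted as blocks (adjusted p 0.129). *Grm2*, *Grm6* and *Grm7* were not called. *Grm2* had 13 reads in spindle and none in muscle, at least 5.68-fold higher against 3 reads over the group, and *Grm7* 14 reads in spindle and 2 in muscle, a ratio of 9.17 (exact 95% interval 2.11 to 83.2).

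**Figure D4:**
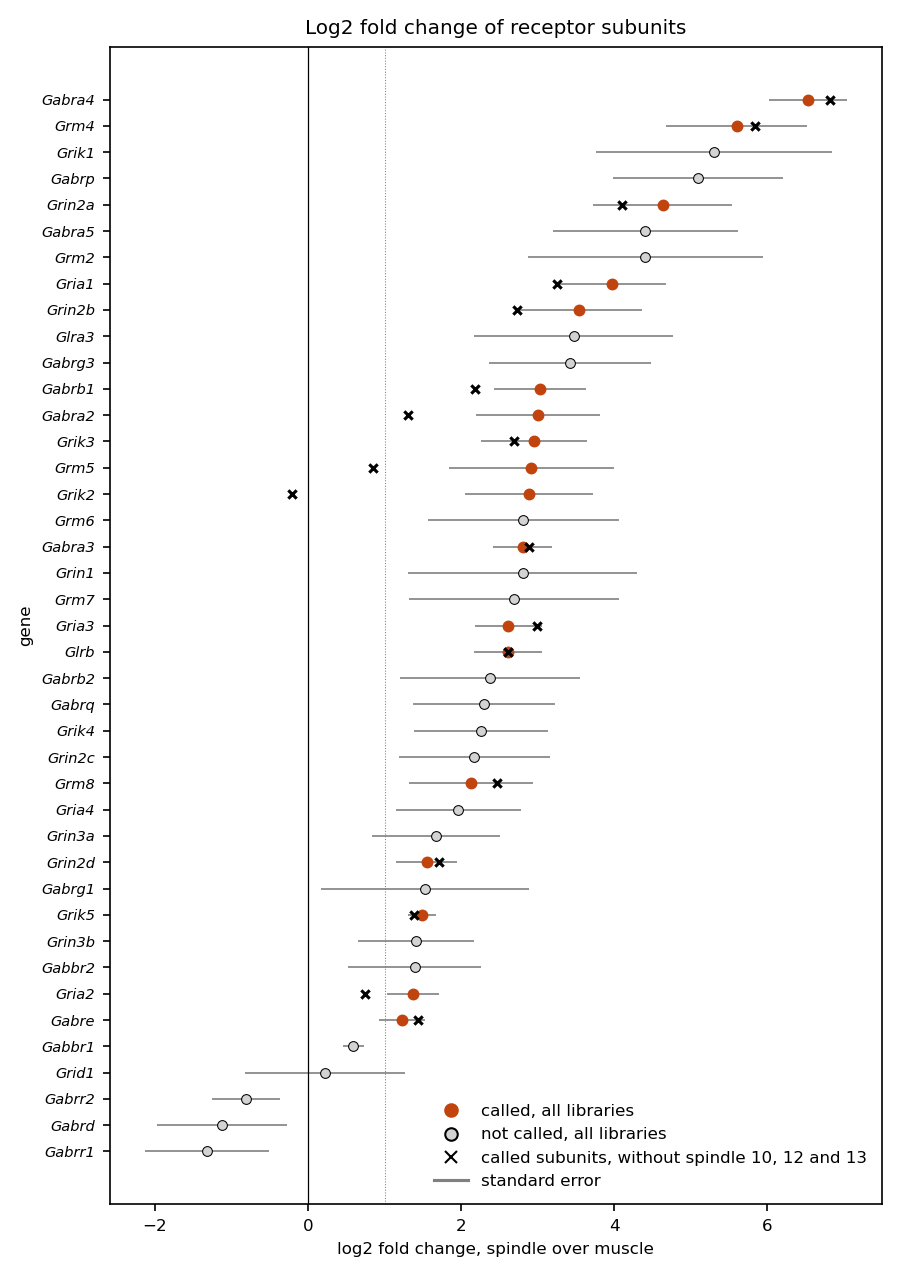
Log2 fold change, spindle over muscle, of 41 subunits with all 11 libraries (points, with bars of 1 standard error) and, for the 18 called subunits among them, without spindle 10, 12 and 13 (crosses). The called subunits run from 1.23 (*Gabre*) to 6.53 (*Gabra4*), crosses lie near their points for *Gabra4*, *Gabra3*, *Glrb* and *Grik5* and to the left of them for *Gria2*, *Gabra2*, *Grm5* and *Grik2*; values of genes with few or no muscle reads depend on the small prior count of the fit.

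Called subunits fell into those that spindle 16 shared with the other spindle libraries and those it did not. In 12 of the 21 (57.1%) spindle 16 was above all 6 muscle libraries, namely the 11 without overlap and *Grik3*, and over all 2470 genes called higher this held for 72.7%. Among the other 9 were *Gria2*, *Grik2*, *Grin2a*, *Grin2b*, *Gabra2*, *Gabrb1*, *Grm5* and *Grm8*. The 12 subunits summed to 46.2, 39.9, 37.2, 31.8 and 30.1 CPM in spindle 9, 10, 12, 13 and 16, against 5.97 to 10.7 CPM in muscle. The 9 subunits summed to 12.4, 15.9, 16.9, 14.4 and 2.16 CPM in the same spindle libraries, against 1.72 to 3.67 CPM in muscle, with muscle 12 highest. For the 9, spindle 16 was thus like muscle, whereas for the 12 it was nearer to the other spindle libraries. Since the split was made on spindle 16 itself, this is a description.

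**Figure D5:**
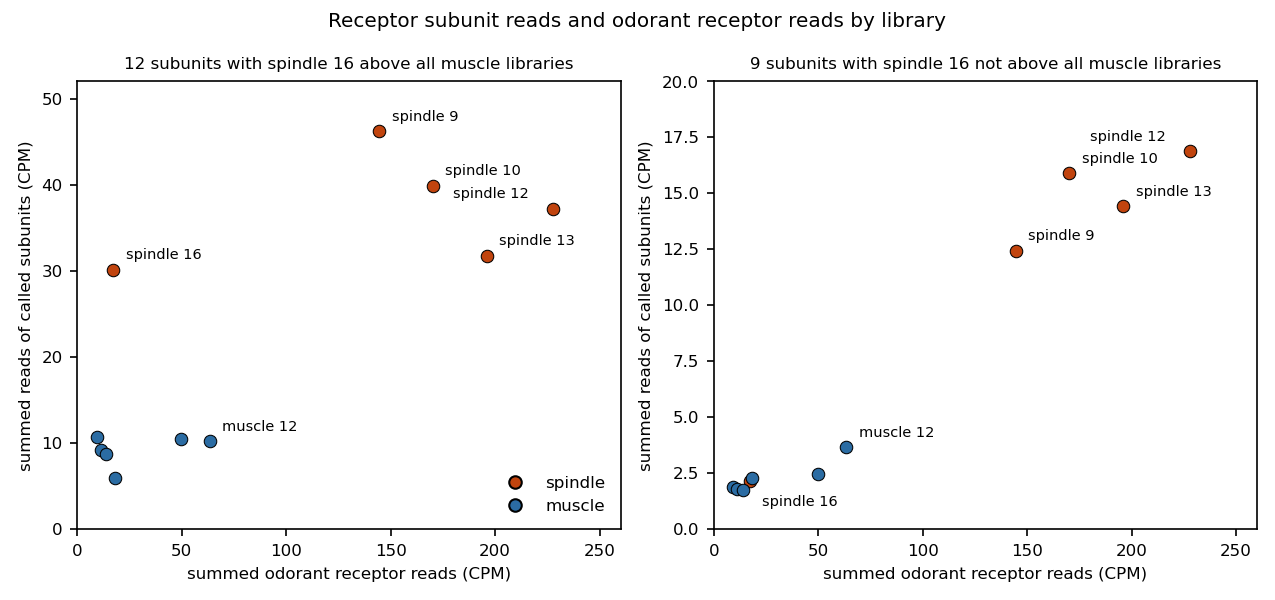
Summed reads (CPM) of called receptor subunits against summed reads (CPM) of 444 odorant receptor genes in each library, for the 12 subunits with spindle 16 above all muscle libraries (left) and the 9 subunits without (right). Spindle 16 has 17.2 CPM of odorant receptor reads, with 30.1 CPM of the 12 subunits and 2.16 CPM of the 9.

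Without spindle 10, 12 and 13, 8 subunits were called higher, where 7.04% of all genes were, and all 8 were among the 21: *Gabra4*, *Gabra3*, *Gabre*, *Glrb*, *Gria3*, *Grik3*, *Grik5* and *Grin2d*. With spindle 16 as the only spindle library, *Gabra4* and *Grik5* were called, where 3.72% of all genes were. In that fit the lone library is assumed to vary as muscle does. With the mouse as a block 18 subunits were called, where 9.86% of all genes were. The part of the odorant receptor reads, or of what came with them, in the 9 subunits was not tested. Of the 4 analysed genes of olfactory epithelium, edgeR and DESeq2 called none (1 at an unadjusted p under 0.05 in each) and limma-voom called 1 higher, and they summed to 4.11 to 6.24 CPM in spindle and 3.24 to 4.40 CPM in muscle, while *Omp* and *Rtp1* were not analysed here. Of 6 analysed genes of central neurons and glia, *Aqp4*, a water channel of astrocytes and of muscle fibers, was called lower, at -1.80 and without overlap, and *Neurod2* was called higher, with 11, 16, 10, 17 and 0 reads in spindle 9, 10, 12, 13 and 16 and 0 to 2 in muscle, and the list summed to 25.1 to 35.0 CPM in spindle and 68.5 to 118 CPM in muscle, most of it *Aqp4*. Neuronal markers in spindle 16 were of both kinds. As a share of the mean of the other 4 spindle libraries, the 13 genes of the axon list stood at 2.26 to 267% (median 68.0%) and the 11 genes of afferents and motoneurons at 0 to 115% (median 61.1%). *Slc17a7*, the vesicular glutamate transporter of proprioceptive afferents, stood at 103% and *Piezo2* at 61.1%. *Snap25*, a protein of vesicle release, stood at 3.77%, the neuronal RNA-binding protein genes *Elavl3*, *Rbfox3* and *Elavl4* at 2.63, 2.26 and 9.00%, and *Runx3* and *Ntrk3*, both genes of proprioceptive neurons, at 8.37 and 30.9%. *Isl1* and *Slc18a3* had 0 reads in spindle 16, which allows up to 3. The sum of the axon list, 32.2 CPM in spindle 16 and 33.2 to 54.5 CPM in the other 4, came for 62.0 to 83.6% from *Kif1a*, *Stmn2* and *Uchl1*. The part of these markers in the 9 subunits was not tested.

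Genes that make, carry or remove the transmitters were counted next to their receptors. Of 33 listed transporters and enzymes, 11 (33.3%) were called higher and 2 (6.06%) lower in spindle, where 11.0% and 1.80% of all genes were, with a median log2 fold change of 1.28. *Slc17a7* had 32, 79, 67, 44 and 90 reads in spindle 9, 10, 12, 13 and 16, against 0 to 3 reads (median 2) in muscle, with a log2 fold change of 5.11 (SE 0.36, adjusted p 2.49e-09 in edgeR). *Gad1*, which encodes a glutamate decarboxylase that makes GABA, had 43, 68, 63, 45 and 34 reads in spindle, against 0 to 3 reads in muscle, all of them in muscle 12, and 6.54 (SE 0.62, adjusted p 1.71e-07 in edgeR). For both genes every spindle library was above every muscle library. *Abat*, the transaminase that breaks GABA down, had a log2 fold change of 2.77 (SE 0.20, adjusted p 4.34e-09 in edgeR), and *Slc1a5*, a carrier of neutral amino acids such as glutamine, 1.28 (SE 0.16, adjusted p 5.29e-06 in edgeR), or 0.98 and uncalled with the median gene set to 0. *Slc6a12*, a transporter of betaine and GABA named here after its values were seen, had 40, 22, 8, 31 and 34 reads in spindle and 0 to 2 in muscle, with 5.41 (SE 0.72, adjusted p 1.11e-05 in edgeR). The abundant genes *Slc38a2* and *Slc38a3*, both glutamine carriers, *Glul*, the glutamine synthetase, and *Glud1*, the glutamate dehydrogenase, were not called, at -0.58, -0.56, -0.13 and -0.19. Without spindle 10, 12 and 13, 8 genes of this list (24.2%) were called higher, where 7.04% of all genes were.

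Of 68 auxiliary and scaffold proteins, 21 (30.9%) were called higher and 4 (5.88%) lower, where 11.0% and 1.80% of all genes were, with a median log2 fold change of 0.81. *Ajap1*, whose product binds GABA-B receptors, had 78, 142, 75, 77 and 97 reads in spindle 9, 10, 12, 13 and 16, against 5 to 14 reads (median 10.5) in muscle, and a log2 fold change of 3.42 (SE 0.30, adjusted p 5.70e-08 in edgeR). *Kctd12*, an auxiliary subunit of the same receptor, had 1.51 (SE 0.17, adjusted p 1.24e-06 in edgeR), and *Nlgn2*, an adhesion protein of inhibitory synapses, 1.42 (SE 0.15, adjusted p 6.58e-07 in edgeR). *Homer1*, which binds mGlu5 and also calcium release channels of muscle, was lower in spindle, with 261, 397, 428, 370 and 728 reads, against 512 to 1487 reads (median 1045) in muscle, a log2 fold change of -1.13 (SE 0.12, adjusted p 9.22e-07 in edgeR). It fell short of the minimum size without spindle 10, 12 and 13 (-0.99) and with library size alone (-0.82). *Gphn*, the gene of gephyrin and named here after its values were seen, stood at -0.89 and was not called. The abundant genes *Trak1*, *Gabarap*, *Dlgap4* and *Trak2* were not called, at -0.80, 0.18, -0.16 and -0.37. Without spindle 10, 12 and 13, 11 genes of this list (16.2%) were called higher, where 7.04% of all genes were.

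Of 43 genes of the signaling path after metabotropic receptors, 10 (23.3%) were called higher and none lower, where 11.0% and 1.80% of all genes were, with a median log2 fold change of 0.44. At an unadjusted p under 0.05, 7 were lower in edgeR, 4 in DESeq2 and 6 in limma-voom, and no tool called any lower. The adenylyl cyclase genes *Adcy8* and *Adcy1*, whose products calcium and calmodulin activate, were called. *Adcy8* had 33, 70, 63, 26 and 56 reads in spindle 9, 10, 12, 13 and 16, against 0 to 3 reads (median 1.5) in muscle, with a log2 fold change of 5.09 (SE 0.46, adjusted p 7.57e-08 in edgeR), and *Adcy1* had 1.75 (SE 0.19, adjusted p 9.82e-07 in edgeR). *Gnai1*, a G protein subunit that inhibits adenylyl cyclase, had 2.41 (SE 0.28, adjusted p 6.11e-06 in edgeR), and *Itpr3*, a calcium channel of internal stores, 1.37 (SE 0.20, adjusted p 2.70e-05 in edgeR). All 4 were called without spindle 10, 12 and 13, as were 8 genes of the list (18.6%), where 7.04% of all genes were. The calmodulin genes *Calm2* and *Calm3* and the G protein subunit gene *Gnai2* were not called, at 0.01, -0.73 and 0.44. These genes serve many other receptors in each tissue of the spindle.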

How the data were processed

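Poly(A) RNA was sequenced from 5 spindle and 6 muscle samples. The deposited counts are raw reads per gene. The authors mapped single-end reads to GRCm38 with STAR 2.4.2a, per the submitters' notes, kept unique alignments and listed genes that reached 5 or more reads in a library (the smallest maximum in the table is 6 reads); whether counting used strand is not given in the sources used here. Another 22 per-sample columns (normalized values) and 6 columns of the authors' own comparison (DESeq2 1.16.1: fold changes, p-values and means) were not used. The study left out 1 further spindle sample with few uniquely aligned reads.

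Counts of 22384 genes were fitted with edgeR 4.0.16 (TMM, robust quasi-likelihood) in R 4.3.3, spindle over muscle, with the study's thresholds and no term for the mouse. A normalized count is a count divided by the effective library size and multiplied by the geometric mean of these sizes, and CPM are counts per 1000000 of the effective size. The script was tested on simulated data. Alternatives were DESeq2 1.42.0, limma 3.58.1 (voom), other scalings and filters, a mouse block, left-out libraries and thinned counts. Intervals of ratios are exact at 95% and the floor is 3 reads. Both cover counting error only, since PCR copies are not independent molecules. The mouse numbers pair the samples, since spindle and muscle came from the same animal. Deviations of both tissues of a mouse from their group means correlated at 0.08 to 0.31 over 12557 genes. Spindle 10, 12, 13 and 16 correlated best with muscle of their own mouse, and spindle 9 with muscle 12. No library was a copy of another (smallest chi-square per gene 21.5). Positions and exon lengths are from GENCODE vM21, an earlier release than the one the authors used, by symbol (46 of 46), and start regions from RefSeq GRCm38.p6 (31 of 46). Figures were made in Python 3.11.15 with matplotlib 3.10.9.

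Subunits named with counts are the called ones and any other whose normalized counts averaged 20 or more; in each related list the 4 called genes with the smallest adjusted p and up to 4 uncalled genes of the highest mean are named. A few genes that these rules cover are not reported here by name, though the counts over subunits and lists include them. The members, the lists and several of the alternatives were chosen with earlier results of these data known.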

Additional observations from a re-analysis of the deposited data

Results flagged for a closer look

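The 40 sets of libraries checked were the 5 spindle and the 6 muscle values of each of 20 named subunits. Of these sets, 7 held a library far from the rest. For normally distributed values chance gives about 1 in 20 sets, and untransformed normalized counts need not follow that distribution. In sets at or near 0 reads a single read can be enough, so no chance rate is given for them. Spindle 16 was far below the other spindle libraries in normalized counts of *Gria2* (11.9, others 48.5 to 61.6), *Grin2b* (3.50, others 36.2 to 42.3) and *Grin2a* (0.699, others 18.8 to 25.8). Spindle 9 was far above the others for *Gabra4* (89.6, others 41.9 to 48.5). Muscle 12 was far above the other muscle libraries for *Grin2b* (13.5, others 0 to 1.60) and *Grin2a* (3.10, others 0 to 0.798). For *Grm4* muscle 13 was the only muscle library with a read (0.753 normalized counts). Odorant receptor reads were at 17.2 CPM in spindle 16, the lowest of spindle, and at 63.3 CPM in muscle 12, the highest of muscle.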

How the results depend on the processing

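The 21 subunits called higher numbered 20 in DESeq2 (*Grm5* lost), 17 in limma-voom (*Gria2*, *Grik2*, *Grm5* and *Grm8* lost), 24 when scaled by library size alone and 16 with the median gene set to 0 (all 16 among the 21). They were 10 after edgeR's filterByExpr, which left 13 of 46 subunits to test, and 11 after thinning to the smallest library. Without spindle 10, 12 and 13 they were 8, where 7.04% of all genes were called higher. With no minimum mean they were 28, where 18.9% of all genes passed, against 11.0% with the minimum. They were 16 to 23 with any single library left out. With the mouse as a replicate block they were 18, where 9.86% of all genes were called higher. *Grm8* and *Grik2* were among those no longer called there. Shares over all genes under the other settings are not given here, nor for the lists below. No subunit was called lower under any of these (0 to 0 with single libraries left out). Library size alone moved the median of all genes by 0.31.

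Auxiliary and scaffold genes called higher (21) were 11 without spindle 10, 12 and 13, 5 with spindle 16 alone and 14 to 22 with single libraries left out; those called lower (4) were 2 with library size alone, 0 with spindle 16 alone and 4 to 5. Signaling genes called higher (10) were 5 with spindle 16 alone and 9 to 11; those called lower (0) were 2 with the median gene at 0 and 1 without muscle 12 and spindle 16. Transporters and enzymes called higher (11) were 9 to 12 with single libraries left out. Those called lower (2) were 1 with limma-voom or after thinning, 3 with the median gene at 0 and 0 with library size alone. They were 0 to 2 with single libraries left out. Without spindle 10, 12 and 13, 1 was called lower, and it was not among the 2.

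The log2 fold change changed sign with spindle 16 alone for *Gria2* (-0.51), *Gabra2* (-0.77), *Grm8* (-0.43), *Grm5* (-4.25), *Dlgap4* (0.074), *Glul* (0.031) and *Glud1* (0.10), without spindle 10, 12 and 13 for *Grik2* (-0.21), with the median gene at 0 for *Gabarap* (-0.12) and *Calm2* (-0.28), and with library size alone for *Dlgap4* (0.19), *Glul* (0.17) and *Glud1* (0.12). With single libraries left out it ranged across 0 for *Dlgap4* (-0.33 to 0.087), *Glul* (-0.23 to 0.14) and *Calm2* (-0.10 to 0.095). Over 43 named genes and all alternatives, 853 values kept direction and call, 63 kept direction but lost the call, 2 gained it and 20 changed sign, 5 of them of called subunits, which were then not called. The causes were not tested. Values with spindle 16 alone rest on 1 spindle library. For *Grm5* that library had 0 reads, so the size of -4.25 depends on the small prior count of the fit. Depth limits genes with few reads: 3 reads are 0.135 CPM in spindle 16 and 0.386 CPM in muscle 10.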
